A study of Mus musculus with 26 samples.

Results

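The 48 genes described here encode the machinery that makes ribosomes in the mouse: 3 subunits of RNA polymerase I (Pol I), Myc, 5 abundant nucleolar proteins, 4 proteins of the box C/D and 4 of the box H/ACA small nucleolar RNA particles, 17 assembly factors of the small ribosomal subunit and 14 of the large one. They were listed by name, and no measured value entered the rule, but earlier results of these data were known when they were chosen. All 48 were found in both deposited tables, of 15629 named entries for MC38 cells and 15300 for T cells. Their RNA was read by sequencing of poly(A) libraries from MC38/gp100 cells, mouse colon adenocarcinoma cells named for the melanoma antigen gp100 they carry, and from T cells of pmel-1 mice, whose transgenic T cell receptor recognises gp100. The MC38 groups were Mtap knockout (KO) cells with MRTX1719, KO cells with GSK3326595, KO cells with DMSO, wild-type (WT) cells with MRTX1719, WT cells with GSK3326595 and WT cells with DMSO. The T cell groups were T cells with MRTX1719, with GSK3326595 and with DMSO. Each inhibitor was used at 0.5 uM, for 5 days in MC38 cells and for 3 days in T cells, and every T cell culture held IL-2. Groups had 3 libraries each, except WT cells with MRTX1719, which had 2. The sources used here do not say whether the KO line is a clone, nor how many mice gave T cells. KO and WT cells are separate lines, so the loss of Mtap and any other difference between the lines cannot be told apart.

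RNA polymerase I transcribes the ribosomal DNA repeats in the nucleolus into a long precursor RNA. The small subunit processome, the box C/D particles that guide methylation and the box H/ACA particles that guide pseudouridylation fold, modify and cut this precursor, and other factors build the large subunit and export both. The transcription factor MYC binds E-box motifs in many of these genes and is known as a main activator of the whole programme in tumour cells and in activated T cells. GSK3326595 inhibits PRMT5, an arginine methyltransferase that modifies splicing proteins and nucleolar proteins among others, and MRTX1719 inhibits PRMT5 when it is bound to methylthioadenosine, the metabolite that the enzyme MTAP clears.

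Total counts ran from 19302768 to 27786226 per MC38 library and from 13813406 to 20772699 per T cell library. The members were well covered, with at least 353 counts in every MC38 library and 340 in every T cell library, and all 48 passed the filter on low counts in both tables. Exons of 22 members overlap another annotated gene, for example Bysl and Ccnd3, Rrp9 and Parp3, Gnl3 and Pbrm1, Mybbp1a and Spns2, Dkc1 and Mpp1, Nhp2 and Rmnd5b, Heatr1 and Lgals8, Tsr1 and Srr, Bop1 and Mroh1, and Noc2l and Samd11, and antisense genes overlap Polr1a, Wdr43 and Nop14. Whether the counting used strand is not known here, so the values of these members are uncertain by the reads such neighbours share. Levels below are counts scaled to 1e+06 per library (CPM) on TMM-scaled library sizes, and MC38 and T cell libraries were scaled and tested separately. CPM does not correct for gene length, so levels are compared between groups and not between genes, and in such bulk RNA fewer expressing cells and less RNA per cell cannot be told apart. Mtap RNA stood at 203 to 276 CPM over the 9 KO libraries and at 388 to 421 CPM over the 8 WT libraries, so it was lower in each KO library than in any WT library but not absent. The T cells carried all 8 genes listed as CD8 T cell markers at 1 CPM or more, with a summed level of 2979 to 4237 CPM. Of these only Cd8a and Cd8b1 encode CD8 chains, and the others, such as Cd3d and Lck, mark T cells in general. The sums were 1.003 to 1.85 CPM for 3 CD4 markers, 3.27 to 6.84 for 5 B cell markers, 0.645 to 1.23 for 5 myeloid markers and 4.97 to 9.67 for 3 NK cell markers. The MC38 cells had 7 of 8 epithelial markers under 1 CPM, Epcam among them, while 6 fibroblast and endothelial markers summed to 1927 to 6642 CPM. The epithelial identity of the label was thus not visible in these markers. Such sums can rest on few genes. Col3a1 alone had 4818 to 5184 CPM in the KO libraries with DMSO, where the 6 markers summed to 6282 to 6642 CPM.

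The members' promoters were searched for the E-box that MYC binds, since Myc itself is a member and the others moved together in several comparisons. The RefSeq promoter table, of the build GRCm38.p6, which is older than the GRCm39 build of the authors' files, holds 300 bases per gene, 250 before and 50 after the start, for 41 of the 48 members (not Myc, Npm1, Fbl, Rrp12, Bop1, Rrs1 and Gnl2). The motif searched was CACGTG, which reads the same on both strands. It was present in 9 of 41 members (21.95%) and in 2187 of 27025 genes of the table (8.09%), and no test was made of this difference. The 9 windows are shown because these members are followed as a group below, with the motif in capitals, its position counted from the start of the gene, and at most 30 bases, 5′ to 3′ on the gene's strand.
Mybbp1a (chr11:72441355-72441376, plus strand, motif at 41): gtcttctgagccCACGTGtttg
Utp20 (chr10:88826765-88826789, minus strand, motif at 38): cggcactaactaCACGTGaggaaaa
Utp4 (chr8:106893643-106893672, plus strand, motif at 16): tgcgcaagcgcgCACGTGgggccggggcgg
Utp18 (chr11:93885769-93885798, minus strand, motif at -20): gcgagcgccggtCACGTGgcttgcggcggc
Wdr43 (chr17:71616220-71616249, plus strand, motif at 18): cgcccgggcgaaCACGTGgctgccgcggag
Ltv1 (chr10:13193092-13193121, minus strand, motif at 29): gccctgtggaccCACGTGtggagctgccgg
Tsr1 (chr11:74898092-74898121, plus strand, motif at 25): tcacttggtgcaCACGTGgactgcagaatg
Pes1 (chr11:3963965-3963994, plus strand, motif at 3): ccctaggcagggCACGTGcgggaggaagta
Nop2 (chr6:125131811-125131840, plus strand, motif at -60): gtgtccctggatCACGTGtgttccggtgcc

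In 2 of the 9, Nop2 and Utp18, the motif lies before the start of the gene. Their 250 bases before the start are given in full to show the surroundings of the motif, again with the motif in capitals.
Nop2 (chr6:125131633-125131882, plus strand): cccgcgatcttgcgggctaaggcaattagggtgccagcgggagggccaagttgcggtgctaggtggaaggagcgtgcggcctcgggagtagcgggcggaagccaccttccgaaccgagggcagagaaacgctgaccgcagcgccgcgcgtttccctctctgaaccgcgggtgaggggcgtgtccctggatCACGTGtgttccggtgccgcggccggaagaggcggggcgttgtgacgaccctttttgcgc
Utp18 (chr11:93885767-93886016, minus strand): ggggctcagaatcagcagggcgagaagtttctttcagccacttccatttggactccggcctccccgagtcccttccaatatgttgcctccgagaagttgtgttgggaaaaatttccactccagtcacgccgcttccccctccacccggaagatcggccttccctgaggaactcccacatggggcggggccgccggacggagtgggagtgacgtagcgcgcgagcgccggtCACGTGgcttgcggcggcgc
A match of these letters is a description of the sequence and does not show that a factor binds there.

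With DMSO alone, KO cells held less RNA than WT cells for most of these genes. Of 48 members, 36 were lower and 3 higher in KO cells, and 9 did not pass the test (edgeR quasi-likelihood test, Benjamini-Hochberg adjusted over all genes, threshold 0.05). Among all genes tested, 37% were lower and 36.2% higher, so calls were common, but in the members they lay mostly on one side. The median log2 fold change of the members was -0.33, against 0.0066 over all genes. Most of the shift was modest: 2 members, Ddx21 and Bysl, changed by at least 2-fold. The summed level of the members, which the most abundant ones dominate, was 9347 to 9473 CPM in KO libraries and 9478 to 9560 CPM in WT libraries, ranges that nearly touch. The 6 fibroblast and endothelial markers, mostly Col3a1, summed to 6282 to 6642 CPM in KO libraries against 2102 to 2129 CPM in WT libraries. The 8 epithelial markers, of which 7 stayed under 1 CPM, summed to 14.7 to 16.1 CPM in KO libraries against 23.0 to 25.2 CPM in WT libraries. The part of these differences in the members' values was not tested. Scaled by the upper quartile instead, 32 members were lower and 7 higher, and without the KO DMSO or the WT DMSO replicate 1 library 5 were higher.

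Myc RNA was far lower in KO cells than in WT cells with DMSO, at 0.503 times the WT level. It had 127, 120.2 and 122 CPM in the 3 KO libraries, against 241, 245 and 247 CPM in the 3 WT libraries. The groups were far apart relative to their spread, at a log2 fold change of -0.99 ± 0.027 (adjusted p = 1.08e-71), where the number after ± is the standard error. The 12 immediate early genes, which respond within minutes to growth signals and to handling and were listed as a sign of cell state, were all lower in KO cells too, with a summed level of 928 to 956 CPM in KO libraries against 3056 to 3160 CPM in WT libraries. Their part in the difference in Myc was not tested.

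The Pol I subunits hardly differed between the lines. Polr1a, the largest catalytic subunit, had 105, 103 and 108 CPM in KO libraries and 113, 115 and 117 CPM in WT libraries, a log2 fold change of -0.12 ± 0.031 (adjusted p = 0.000191). Polr1b, the other catalytic subunit, had 46.5, 47.0 and 48.3 CPM in KO and 52.3, 51.8 and 50.1 CPM in WT libraries, a log2 fold change of -0.12 ± 0.040 (adjusted p = 0.00493). Both genes were lower in every KO library than in any WT library, by a small margin, and neither passed the test under upper-quartile scaling. Polr1c, which Pol I shares with RNA polymerase III, had 55.6, 61.5 and 58.9 CPM in KO and 62.5, 56.8 and 57.0 CPM in WT libraries, with overlapping groups and a log2 fold change of 0.0024 ± 0.040 (adjusted p = 0.961).

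Among the abundant nucleolar proteins the lines differed in both directions. Ddx21, a helicase that couples Pol I transcription to rRNA processing, had 169, 164 and 164 CPM in KO libraries and 415, 405 and 413 CPM in WT libraries, a log2 fold change of -1.31 ± 0.023 (adjusted p = 8.87e-94). This was the lowest value of any member, and the KO libraries all stood far below the WT libraries. Nolc1, a chaperone of small nucleolar RNA particles, fell as well (-0.37). Npm1, nucleophosmin, which shuttles ribosomal particles and is the member with the most counts, had 3571, 3616 and 3632 CPM in KO libraries and 2543, 2537 and 2539.5 CPM in WT libraries, a log2 fold change of 0.51 ± 0.016 (adjusted p = 8.24e-62). Mybbp1a, a nucleolar protein that binds MYB and takes part in rRNA processing, had 611, 631 and 621 CPM in KO and 429, 432 and 441 CPM in WT libraries, a log2 fold change of 0.52 ± 0.020 (adjusted p = 8.43e-54). These 2 genes were higher in every KO library than in any WT library, while nucleolin, Ncl, did not pass the test (0.037).

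The snoRNA particles and the small subunit factors were lower in KO cells nearly throughout, where 37% of all genes were lower and 36.2% higher. All 4 box C/D genes fell, from -0.28 for the methyltransferase gene Fbl to -0.99 for Rrp9, which belongs to the U3 particle. Of the 4 box H/ACA genes 3 fell, among them Dkc1, the pseudouridine synthase, at -0.36, and Nop10 did not pass (-0.053). Of 17 small subunit factors 16 fell, with a median of -0.40, and Utp15 did not pass (-0.046). Bysl, bystin, which acts late in small subunit maturation, had 18.1, 14.4 and 15.8 CPM in KO libraries and 33.3, 32.9 and 31.9 CPM in WT libraries, a log2 fold change of -1.03 ± 0.059 (adjusted p = 8.04e-36). Every KO library was far below the WT libraries. Ltv1, a late assembly and export factor of the same subunit, fell by nearly as much (-0.98).

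The large subunit factors were more divided in KO cells, with 8 of 14 lower and 1 higher, against 37% and 36.2% of all genes. Among the lower were the GTPase gene Gnl3, which encodes nucleostemin (-0.82), Rrs1 (-0.77), the 28S rRNA methyltransferase gene Nop2 (-0.58) and Mrto4 (-0.50). The higher one was Ddx56, a nucleolar helicase, which had 64.7, 65.7 and 66.2 CPM in KO libraries and 42.4, 38.0 and 40.1 CPM in WT libraries, a log2 fold change of 0.71 ± 0.041 (adjusted p = 1.17e-35). It had the highest value of all members, and no KO library overlapped the WT libraries. Of the PeBoW complex, which matures the large subunit RNA, Bop1 (-0.30) and Wdr12 (-0.17) fell, and Pes1 did not pass (0.046).

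**Figure D1:**
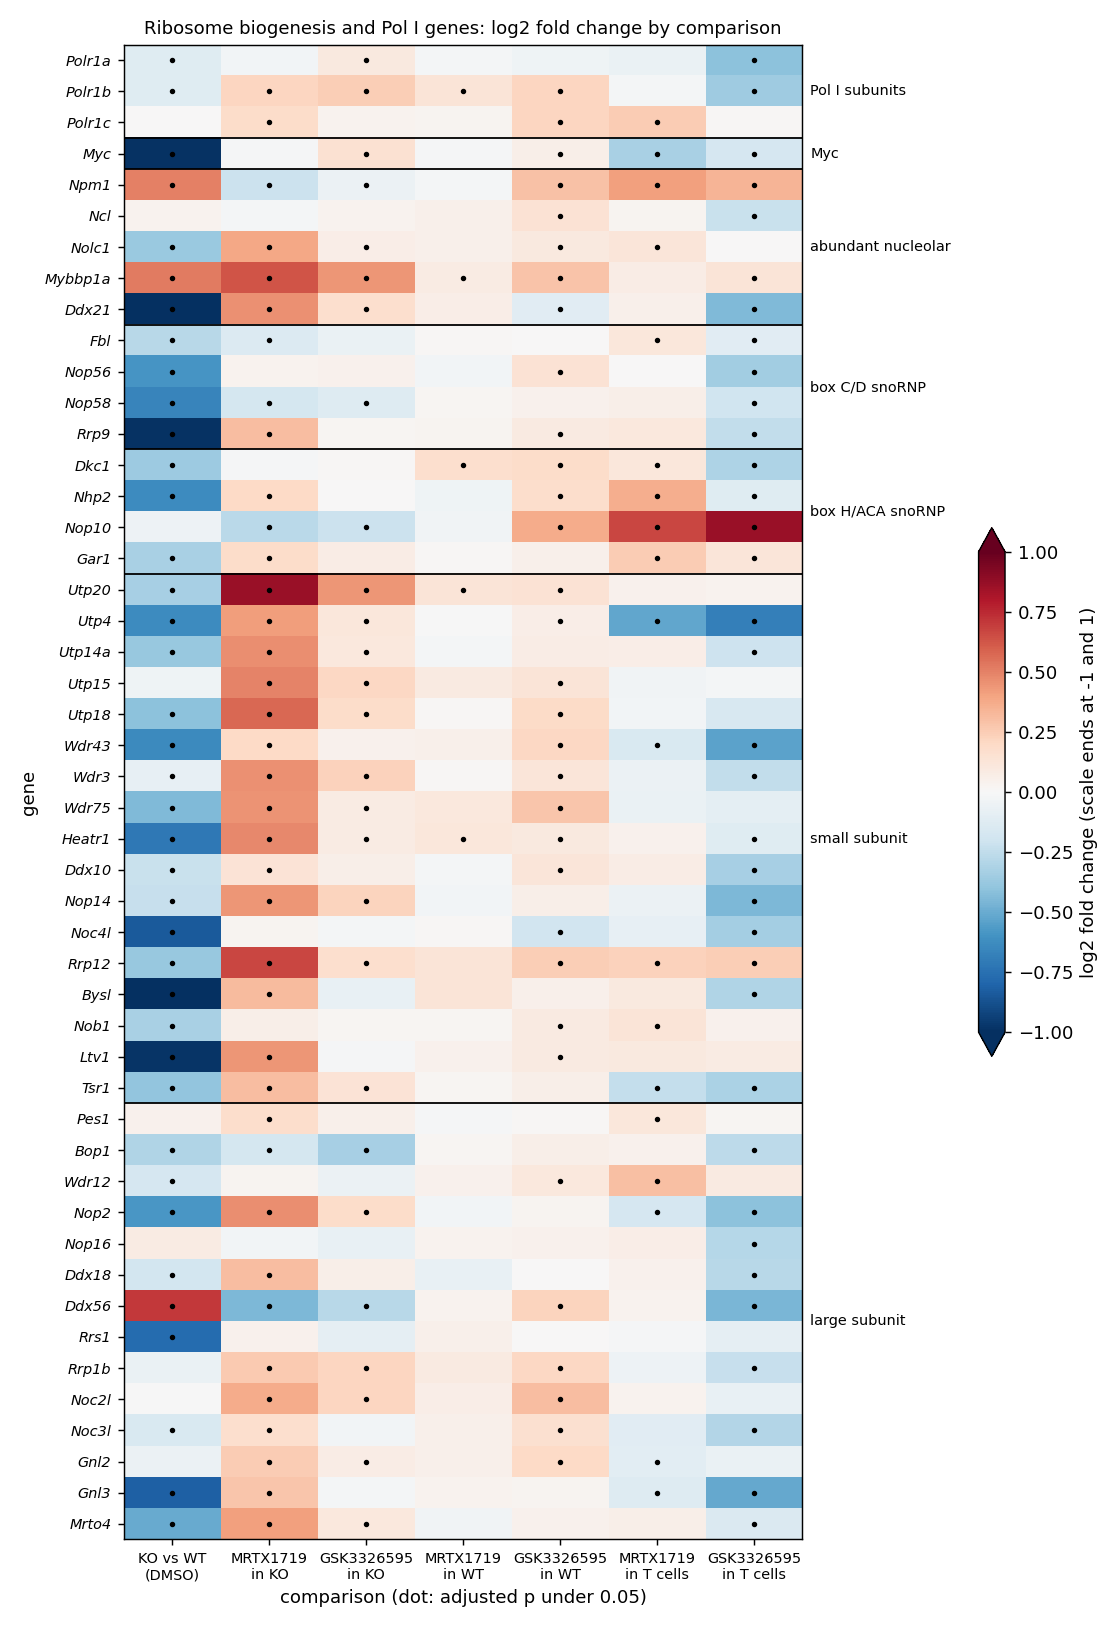
Log2 fold change of each of the 48 members (rows, grouped by role) in 7 comparisons (columns), on a colour scale that ends at -1 and 1, with a dot where the adjusted p was under 0.05. The KO column is mostly blue, the MRTX1719 in KO column mostly red among small subunit factors, the MRTX1719 in WT column nearly blank, and the GSK3326595 in T cells column mostly blue.

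With MRTX1719, KO cells gained RNA for most of these genes. 32 members rose, 6 fell and 10 did not pass, against 37% of all genes higher and 33.6% lower, and the median log2 fold change was 0.23 for the members and 0.022 over all genes. Under upper-quartile scaling 30 members rose and 12 fell. The summed level of the members was 9883 to 10015 CPM with MRTX1719 and 9347 to 9473 CPM with DMSO in KO cells. The fibroblast and endothelial markers, mostly Col3a1, summed to 2761 to 2793 CPM with MRTX1719 against 6282 to 6642 CPM with DMSO. Of these markers 4 fell and 1 rose. The epithelial markers, of which 7 of 8 stayed under 1 CPM, summed to 59.7 to 61.1 CPM with MRTX1719 against 14.7 to 16.1 CPM with DMSO. The part of these markers in the rise of the members was not tested.

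The small subunit factors rose nearly throughout: 15 of 17 rose, with a median of 0.45, against 37% of all genes. The other 2, Noc4l and Nob1, did not pass (0.029 and 0.055). Utp20, a scaffold of the small subunit processome, had 150.1, 149 and 156 CPM with MRTX1719, against 82.3, 82.3 and 85.8 CPM with DMSO in KO cells, a log2 fold change of 0.86 ± 0.031 (adjusted p = 6.07e-56) and the highest of the members. Rrp12, which helps to export pre-ribosomes, had 58.5, 63.4 and 59.7 CPM with MRTX1719 and 37.2, 38.1 and 39.5 CPM with DMSO, a log2 fold change of 0.66 ± 0.043 (adjusted p = 7.36e-31). In both genes each treated KO library stood well above each DMSO library. Other processome factors rose by 0.48 (Heatr1), 0.49 (Utp15), 0.57 (Utp18) and 0.42 (Utp4), in each case past the test. Ltv1, low in KO cells, had 42.4, 42.04 and 41.7 CPM with MRTX1719 and 31.2, 32.7 and 28.8 CPM with DMSO in KO cells, while its level in WT cells with DMSO was 60.9, 60.2 and 61.6 CPM. So its KO libraries with MRTX1719 stood above those with DMSO and still below the WT libraries.

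Mybbp1a, already higher in KO than in WT cells, went further up with MRTX1719, to 952, 962 and 959.7 CPM, against 611, 631 and 621 CPM with DMSO, a log2 fold change of 0.63 ± 0.019 (adjusted p = 2.26e-64). Ddx21 had 226, 227 and 229 CPM with MRTX1719 and 169, 164 and 164 CPM with DMSO, a log2 fold change of 0.45 ± 0.024 (adjusted p = 3.22e-38). Neither gene overlapped between the 2 treatments, and Nolc1 rose too (0.39). Npm1 did the opposite, with 3058, 3102 and 3167 CPM with MRTX1719 and 3571, 3616 and 3632 CPM with DMSO, a log2 fold change of -0.21 ± 0.016 (adjusted p = 5.1e-25). Its treated libraries were all below the DMSO libraries. Of the large subunit factors 9 of 14 rose, led by Nop2 (0.47) and Mrto4 (0.41), and 2 fell, against 37% and 33.6% of all genes.

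The members that fell in KO cells with MRTX1719 were Ddx56, Nop10, Npm1, Bop1, Nop58 and Fbl. Ddx56 had 47.3, 47.7 and 49.3 CPM with MRTX1719 and 64.7, 65.7 and 66.2 CPM with DMSO, a log2 fold change of -0.45 ± 0.040 (adjusted p = 1.7e-20). Nop10, a small core protein of the H/ACA particle, had 34.8, 34.4 and 33.7 CPM with MRTX1719 and 41.4, 42.8 and 39.9 CPM with DMSO, a log2 fold change of -0.27 ± 0.049 (adjusted p = 7.39e-07). Groups did not overlap in either gene. The remaining 3 changed by -0.17 (Bop1), -0.17 (Nop58) and -0.14 (Fbl), so the C/D particle held both risers, such as Rrp9 (0.31), and fallers.

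Myc RNA itself did not pass the test in KO cells with MRTX1719, and its relation to the rise of the other members was not tested. Myc had 125, 121 and 122 CPM with MRTX1719 and 127, 120.2 and 122 CPM with DMSO, overlapping groups with a log2 fold change of -0.0078 ± 0.029 (adjusted p = 0.819). Under upper-quartile scaling the value was instead -0.098 and passed the test. Summed immediate early RNA was 684 to 704 CPM with MRTX1719 and 928 to 956 CPM with DMSO. Of these 12 genes 8 fell and 4 rose, against 33.6% and 37% of all genes, and their relation to Myc was not tested. Polr1a had 109, 99.7 and 103 CPM with MRTX1719 and 105, 103 and 108 CPM with DMSO, again overlapping, with a log2 fold change of -0.025 ± 0.031 (adjusted p = 0.479), which became -0.11 and passed the test under upper-quartile scaling. Polr1b had 54.9, 55.4 and 54.1 CPM with MRTX1719 and 46.5, 47.0 and 48.3 CPM with DMSO, a log2 fold change of 0.21 ± 0.040 (adjusted p = 8.16e-07). Polr1c had 68.7, 66.8 and 64.8 CPM with MRTX1719 and 55.6, 61.5 and 58.9 CPM with DMSO, a log2 fold change of 0.18 ± 0.040 (adjusted p = 2.65e-05). Polr1b and Polr1c were thus slightly higher in each treated library than in any DMSO library.

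Fewer members passed the test with GSK3326595 in KO cells. 22 members rose, 5 fell and 21 did not pass, against 27.7% of all genes higher and 25.1% lower, with a median log2 fold change of 0.057 for the members and 0.0059 over all genes. Scaled by library totals alone the split was 15 higher and 8 lower, and by the upper quartile 15 higher and 9 lower. Without the GSK3326595 replicate 1 library, 8 members fell. The fibroblast and endothelial markers, mostly Col3a1, summed to 3950 to 4004 CPM with GSK3326595 and to 6282 to 6642 CPM with DMSO. Of these markers 3 fell and 2 rose. The epithelial markers, of which 7 of 8 stayed under 1 CPM, summed to 60.1 to 62.6 CPM with GSK3326595 and to 14.7 to 16.1 CPM with DMSO. The part of these markers was not tested. Of the small subunit factors, the largest class, 11 of 17 were higher and 0 lower. Also higher were 2 of 3 Pol I subunits, 3 of 5 abundant nucleolar proteins and 5 of 14 large subunit factors. Of the latter 2 classes 1 and 2 genes were lower. No C/D or H/ACA gene rose, and 1 of each fell. Mybbp1a had 851, 843 and 839 CPM with GSK3326595 and 611, 631 and 621 CPM with DMSO in KO cells, a log2 fold change of 0.44 ± 0.019 (adjusted p = 7.61e-47). Utp20 had 111, 115 and 114 CPM with GSK3326595 and 82.3, 82.3 and 85.8 CPM with DMSO, a log2 fold change of 0.44 ± 0.032 (adjusted p = 4.51e-26). Both genes were higher in every treated library than in any DMSO library.

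Bop1 had 41.7, 38.8 and 40.3 CPM with GSK3326595 and 47.8, 53.9 and 49.4 CPM with DMSO in KO cells, a log2 fold change of -0.33 ± 0.042 (adjusted p = 1.08e-11). Ddx56 had 55.5, 53.5 and 53.3 CPM with GSK3326595 and 64.7, 65.7 and 66.2 CPM with DMSO, a log2 fold change of -0.28 ± 0.038 (adjusted p = 1.9e-10). In these 2 large subunit genes the treated libraries stood below all DMSO libraries. Nop10 had 40.5, 32.2 and 35.0 CPM with GSK3326595 and 41.4, 42.8 and 39.9 CPM with DMSO, where 1 treated library reached the DMSO range, and a log2 fold change of -0.21 ± 0.048 (adjusted p = 8.72e-05). Myc had 139, 137 and 135 CPM with GSK3326595 and 127, 120.2 and 122 CPM with DMSO, a log2 fold change of 0.15 ± 0.028 (adjusted p = 1.03e-06). This small rise was present in each library. Polr1a had 115, 114 and 109.6 CPM (0.10 ± 0.030, adjusted p = 0.00418, log2 scale, against DMSO), Polr1b had 55.9, 57.0 and 55.3 CPM (0.25 ± 0.039, adjusted p = 2.54e-08) and Polr1c had 62.7, 58.7 and 60.0 CPM (0.038 ± 0.040, adjusted p = 0.442). The Polr1a call was lost under library totals and under upper-quartile scaling, at 0.067 and 0.055.

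**Figure D2:**
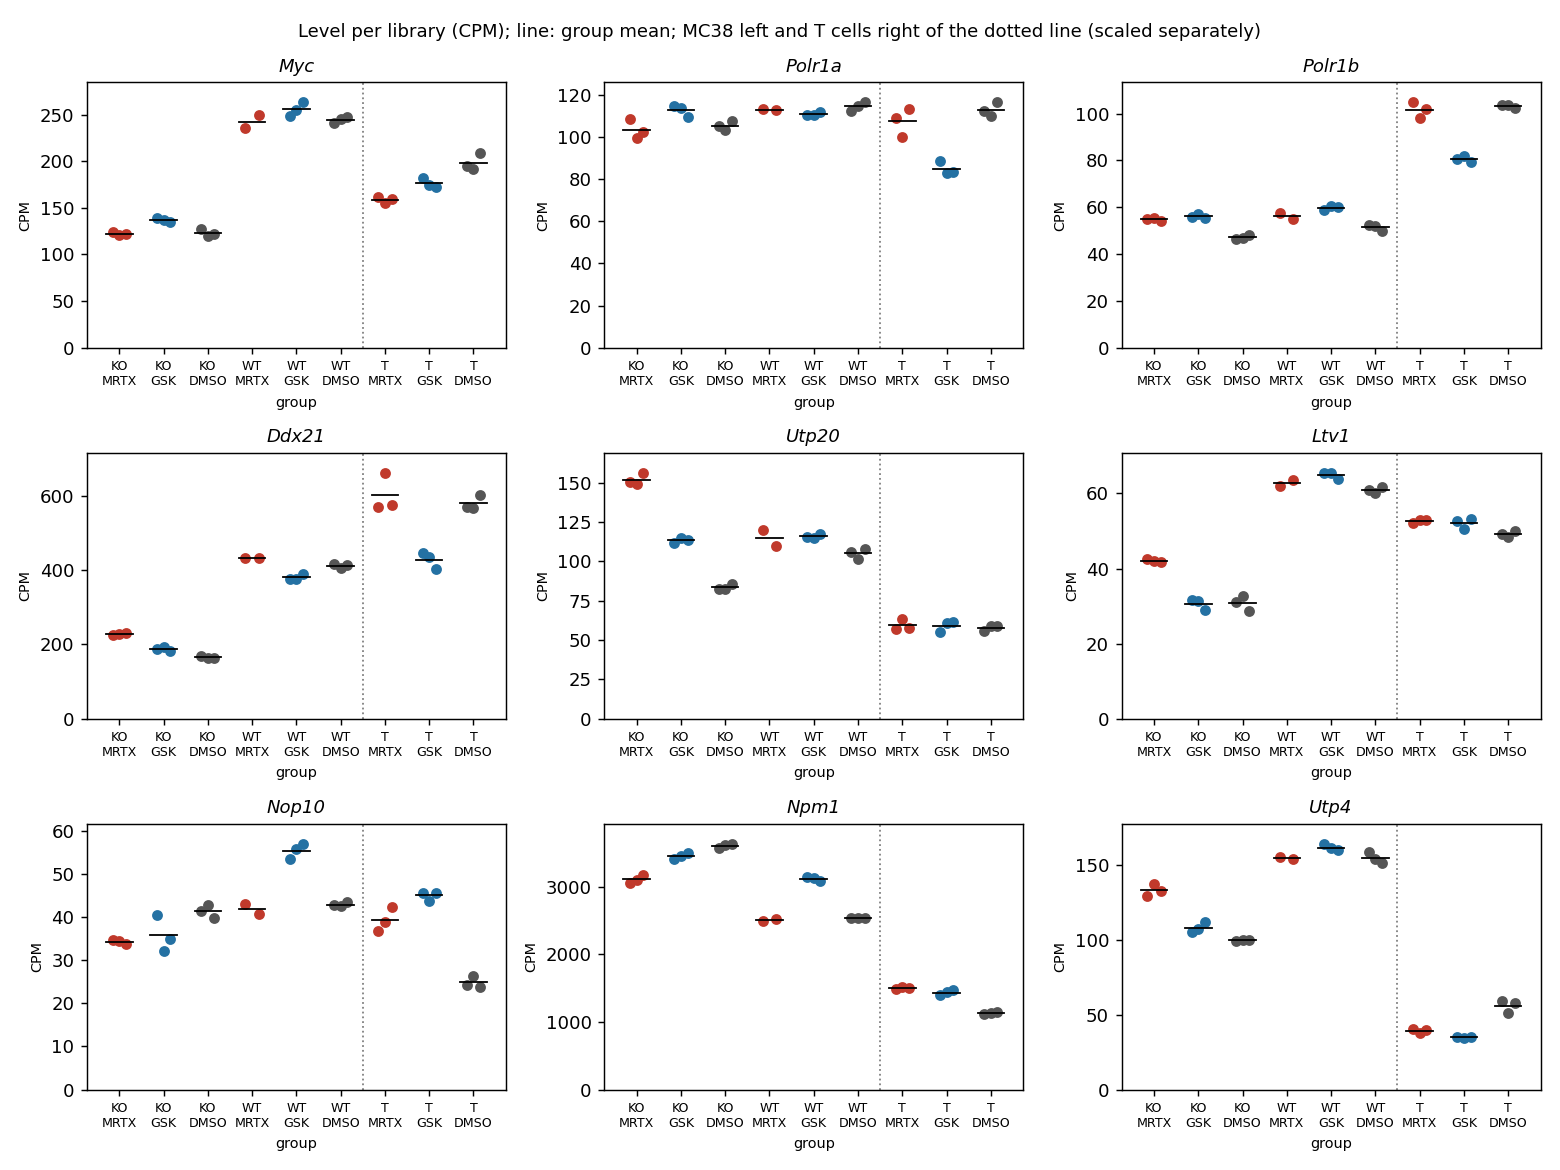
Level of 9 members in each library (points, CPM from 0), with the group mean as a line, for the 6 MC38 groups left of the dotted line and the 3 T cell groups right of it, which were scaled separately. Myc and Ddx21 stand lower in all KO groups than in all WT groups, Utp20 is highest in KO cells with MRTX1719, and Nop10 is higher with either inhibitor than with DMSO in T cells.

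Set directly against each other in KO cells, the 2 inhibitors differed at most members. 31 members were higher and 6 lower with MRTX1719 than with GSK3326595, against 28.3% and 24.9% of all genes, and the median log2 difference was 0.16 for the members and 0.0086 over all genes. Higher with MRTX1719 were 14 of 17 small subunit factors, 10 of 14 large subunit factors, 3 of 5 abundant nucleolar proteins, 2 of 4 H/ACA proteins, 1 of 4 C/D proteins and 1 of 3 Pol I subunits. Rrp12 had 58.5, 63.4 and 59.7 CPM with MRTX1719 and 42.3, 43.1 and 43.8 CPM with GSK3326595, a log2 difference of 0.49 ± 0.041 (adjusted p = 1.15e-21). Ltv1 had 42.4, 42.04 and 41.7 CPM with MRTX1719 and 31.6, 31.5 and 28.8 CPM with GSK3326595, a log2 difference of 0.46 ± 0.046 (adjusted p = 7.42e-17). Utp20 differed by 0.42 ± 0.029 (adjusted p = 3.68e-27). In these 3 small subunit genes no library of one inhibitor reached the range of the other.

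Lower with MRTX1719 than with GSK3326595 in KO cells were, among others, Ddx56 by a log2 difference of -0.17 ± 0.040 (adjusted p = 0.000161), Myc by -0.16 ± 0.028 (adjusted p = 2.74e-07) and Npm1 by -0.15 ± 0.016 (adjusted p = 3.37e-15). Each of the 3 was lower in every MRTX1719 library. Polr1a was lower (-0.12 ± 0.030, adjusted p = 0.000287), Polr1c higher (0.14 ± 0.039, adjusted p = 0.000947), and Polr1b did not pass (-0.032 ± 0.038, adjusted p = 0.505). For Myc the 2 inhibitors thus differed in KO cells, where against DMSO it passed the test with GSK3326595 (0.15) and not with MRTX1719 (-0.0078).

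In WT cells MRTX1719 left these genes close to the DMSO level. 5 members rose, and none fell by the edgeR test, against 3.62% of all genes higher and 3.91% lower, with a median log2 fold change of 0.024 for the members and -0.00046 over all genes. At an unadjusted p under 0.05 there were 12 higher and 1 lower, and DESeq2 called 5 higher and 0 lower. The count is fragile, since it was 1 without the MRTX1719 replicate 1 library, 3 without replicate 3, and 3 or 2 without the DMSO replicate 1 or 2 library. It was 8 with library totals alone and 8 when the 2 groups were fitted alone. Dkc1 had 114 and 108 CPM with MRTX1719 and 99.9, 101 and 94.8 CPM with DMSO, a log2 fold change of 0.17 ± 0.034 (adjusted p = 0.000167). Utp20 had 120.0 and 110.0 CPM with MRTX1719 and 106, 101 and 108 CPM with DMSO, a log2 fold change of 0.13 ± 0.034 (adjusted p = 0.0051). Both genes were higher in each of the 2 treated libraries, but neither passed without the MRTX1719 replicate 1 library, at 0.14 for Dkc1 and 0.069 for Utp20, and Utp20 did not pass without the DMSO replicate 2 library either, at 0.11.

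The 3 Pol I subunits among the members and Myc were near their DMSO level in WT cells with MRTX1719. Polr1b had 57.4 and 54.9 CPM with MRTX1719 and 52.3, 51.8 and 50.1 CPM with DMSO, a log2 fold change of 0.13 ± 0.042 (adjusted p = 0.0425). That call was lost when any single library of these groups was left out, with values of 0.096 to 0.16, with DESeq2 and with no filter on low counts. Polr1a had 113 and 113 CPM with MRTX1719 and 113, 115 and 117 CPM with DMSO (-0.019 ± 0.033, adjusted p = 0.825, log2 scale). Polr1c had 58.1 and 61.4 CPM with MRTX1719 and 62.5, 56.8 and 57.0 CPM with DMSO (0.025 ± 0.044, adjusted p = 0.826). Myc had 236 and 249 CPM with MRTX1719 and 241, 245 and 247 CPM with DMSO (-0.013 ± 0.027, adjusted p = 0.861). In all 3 genes the groups overlapped.

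GSK3326595 raised many members slightly in WT cells. 30 members rose, 2 fell and 16 did not pass, against 20.1% of all genes higher and 21.1% lower, with a median log2 fold change of 0.10 for the members and 0.00098 over all genes. With a change of at least 1.2-fold also required, 5 rose and 0 fell, so most of these changes were small. Nop10 had 53.5, 55.8 and 57.0 CPM with GSK3326595 and 42.8, 42.5 and 43.5 CPM with DMSO in WT cells, a log2 fold change of 0.37 ± 0.044 (adjusted p = 2.61e-12). Noc2l, a large subunit factor also known to bind p53, had 251, 254 and 248 CPM with GSK3326595 and 203, 207 and 198 CPM with DMSO, a log2 fold change of 0.31 ± 0.024 (adjusted p = 8.65e-24). Npm1 had 3141, 3129 and 3081 CPM with GSK3326595 and 2543, 2537 and 2539.5 CPM with DMSO, a log2 fold change of 0.30 ± 0.016 (adjusted p = 1.17e-35). In each of these 3 genes the treated libraries stood above all DMSO libraries.

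The 2 members that fell with GSK3326595 in WT cells were Noc4l and Ddx21. Noc4l, a small subunit factor, had 33.8, 32.8 and 33.8 CPM with GSK3326595 and 37.4, 39.1 and 38.2 CPM with DMSO, a log2 fold change of -0.19 ± 0.047 (adjusted p = 0.000351). Ddx21 had 376, 375 and 389 CPM with GSK3326595 and 415, 405 and 413 CPM with DMSO, a log2 fold change of -0.11 ± 0.021 (adjusted p = 4.49e-06). Neither gene overlapped between the groups, although the margins were small. Polr1b had 58.7, 60.6 and 59.9 CPM with GSK3326595 (0.22 ± 0.037, adjusted p = 4.02e-07, log2 scale, against DMSO), Polr1c had 64.0, 68.3 and 72.0 CPM (0.21 ± 0.039, adjusted p = 1.87e-06) and Polr1a had 111, 111 and 112 CPM (-0.046 ± 0.030, adjusted p = 0.223). Myc had 248, 255 and 264 CPM with GSK3326595 and 241, 245 and 247 CPM with DMSO, a log2 fold change of 0.062 ± 0.024 (adjusted p = 0.0302). That Myc call was lost with DESeq2, with library totals, with no filter on low counts, and without either of 2 DMSO libraries (replicates 1 and 2) or 2 GSK3326595 libraries (replicates 2 and 3), at 0.042 to 0.065 over the single libraries left out.

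Between the inhibitors in WT cells, 19 members were lower and 2 higher with MRTX1719 than with GSK3326595, against 14.6% and 15.4% of all genes, with a median log2 difference of -0.070 for the members and -0.00031 over all genes. The most negative were Nop10 at -0.40 ± 0.049 (adjusted p = 1.52e-11), Npm1 at -0.31 ± 0.018 (adjusted p = 3.68e-33) and Noc2l at -0.24 ± 0.026 (adjusted p = 4.62e-14), the 3 genes that GSK3326595 raised most. The higher ones were Noc4l at 0.20 ± 0.052 (adjusted p = 0.000908) and Ddx21 at 0.18 ± 0.024 (adjusted p = 1.3e-10), and without the MRTX1719 replicate 3 library Noc4l did not pass, at 0.15, which left 1 higher. Polr1c was lower (-0.19 ± 0.043, adjusted p = 0.000202), as was Myc (-0.075 ± 0.027, adjusted p = 0.0242), while Polr1a (0.027 ± 0.033, adjusted p = 0.597) and Polr1b (-0.090 ± 0.041, adjusted p = 0.0841) did not pass, although Polr1b passed under upper-quartile scaling, at -0.11. The Myc call was lost without the MRTX1719 replicate 1 library, at -0.035, without the GSK3326595 replicate 3 library, at -0.054, with library totals alone and with no filter on low counts.

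The effect of each inhibitor was then compared between the MC38 lines by an interaction term, the effect in KO cells minus that in WT cells. For MRTX1719, 29 members had a more positive effect in KO cells and 8 a more negative one, against 30.3% and 27.9% of all genes, with a median of 0.19 for the members and 0.014 over all genes. Of the small subunit factors 14 of 17 were among the more positive. Utp20 had an interaction of 0.73 ± 0.046 (adjusted p = 4.42e-31) and Mybbp1a of 0.54 ± 0.029 (adjusted p = 2.33e-37). Utp18, a processome factor, had 89.8, 89.1 and 91.5 CPM with MRTX1719 and 60.3, 59.1 and 62.5 CPM with DMSO in KO cells, against 79.9 and 82.8 CPM with MRTX1719 and 79.9, 79.7 and 82.5 CPM with DMSO in WT cells, an interaction of 0.56 ± 0.050 (adjusted p = 5.95e-20). Its KO libraries with MRTX1719 thus lay above those with DMSO, while the WT libraries of both treatments overlapped. On the other side stood Ddx56 at -0.48 ± 0.062 (adjusted p = 9.75e-12), Nop10 at -0.24 ± 0.071 (adjusted p = 0.00255) and Bop1 at -0.20 ± 0.059 (adjusted p = 0.00249). For Myc the interaction was 0.0051 ± 0.040 (adjusted p = 0.924) and turned to -0.088 under upper-quartile scaling (adjusted p = 0.0496), for Polr1a it was -0.0061 ± 0.046 (adjusted p = 0.921), for Polr1b 0.086 ± 0.058 (adjusted p = 0.198) and for Polr1c 0.16 ± 0.059 (adjusted p = 0.0171). The Polr1c call was lost without the KO DMSO replicate 1, the WT DMSO replicate 1 or the WT MRTX1719 replicate 1 library, at 0.11 to 0.12, and under library totals, upper-quartile scaling and no filter on low counts.

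For GSK3326595 the interaction went the other way at more members, with 16 more negative and 8 more positive in KO than in WT cells, against 20.2% and 22% of all genes, and a median of -0.063 for the members and -0.0068 over all genes. Upper-quartile scaling gave 26 more negative and 3 more positive. The most negative were Nop10 at -0.58 ± 0.065 (adjusted p = 2.33e-13), Ddx56 at -0.50 ± 0.057 (adjusted p = 1.02e-13) and Bop1 at -0.39 ± 0.056 (adjusted p = 2.01e-09). Nop10 and Ddx56 fell with GSK3326595 in KO cells and rose with it in WT cells. The most positive were Utp20 at 0.30 ± 0.044 (adjusted p = 4.55e-09), Ddx21 at 0.28 ± 0.033 (adjusted p = 2.72e-13) and Nop14, a small subunit factor, at 0.17 ± 0.043 (adjusted p = 0.000625). Nop14 had 107, 116 and 117 CPM with GSK3326595 and 98.0, 95.1 and 98.4 CPM with DMSO in KO cells, against 117, 121 and 117 CPM with GSK3326595 and 111, 118 and 112 CPM with DMSO in WT cells, so the treatments overlapped in WT cells only. Under upper-quartile scaling its value was 0.098 and did not pass. Ddx21 rose in KO and fell in WT cells with this compound. Among the Pol I subunits Polr1a was at 0.14 ± 0.043 (adjusted p = 0.00352), but at 0.073 and not past the test under upper-quartile scaling, Polr1b at 0.028 ± 0.054 (adjusted p = 0.718) and Polr1c at -0.18 ± 0.056 (adjusted p = 0.00679). Myc, at 0.090 ± 0.037 (adjusted p = 0.0401), lost the call, at 0.069 to 0.088, without the WT DMSO replicate 2 or 3, WT GSK3326595 replicate 1 or 2, KO DMSO replicate 2 or 3, or KO GSK3326595 replicate 1 or 2 library. It was also lost under upper-quartile scaling, at 0.020, with library totals, at 0.068, with no filter on low counts, at 0.081, with only the groups compared, at 0.088, and with DESeq2, at 0.088.

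In T cells GSK3326595 lowered most of these genes. 30 members fell, 5 rose and 13 did not pass, against 26.2% of all genes lower and 26.6% higher, with a median log2 fold change of -0.20 for the members and -0.0033 over all genes. The summed level of the members was 9323 to 9491 CPM with GSK3326595 and 10116 to 10645 CPM with DMSO. The 8 CD8 T cell markers summed to 4190 to 4237 CPM with GSK3326595 and to 2979 to 2990 CPM with DMSO, with 7 of 8 higher. The 7 leukocyte markers, of which 5 stayed under 1 CPM, summed to 2303 to 2438 CPM with GSK3326595 and to 1512 to 1600 CPM with DMSO. The part of these markers in the fall of the members was not tested. The fall covered all 4 box C/D genes, 10 of 17 small subunit factors and 9 of 14 large subunit factors. It also covered 2 of the 3 Pol I subunits. Polr1a had 88.5, 82.9 and 83.3 CPM with GSK3326595 and 113, 109.8 and 117 CPM with DMSO, a log2 fold change of -0.41 ± 0.045 (adjusted p = 2.62e-13). Polr1b had 80.5, 81.9 and 79.4 CPM with GSK3326595 and 104, 104 and 103 CPM with DMSO, a log2 fold change of -0.36 ± 0.044 (adjusted p = 2.53e-11). Both catalytic subunits were lower in each treated library than in any DMSO library. Polr1c had 60.9, 65.6 and 58.7 CPM with GSK3326595 and 59.9, 62.7 and 60.7 CPM with DMSO, overlapping groups with a log2 fold change of 0.012 ± 0.051 (adjusted p = 0.861).

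Among the assembly factors in T cells, Utp4 fell most with GSK3326595. This processome factor of the early transcription-linked module had 35.4, 34.2 and 35.1 CPM with GSK3326595 and 59.0, 50.9 and 57.9 CPM with DMSO, a log2 fold change of -0.68 ± 0.059 (adjusted p = 6.03e-18). Wdr43, of the same module, had 185, 167 and 174 CPM with GSK3326595 and 254, 247 and 263 CPM with DMSO, a log2 fold change of -0.54 ± 0.039 (adjusted p = 2.08e-22). Gnl3 had 243, 227 and 237 CPM with GSK3326595 and 335, 337 and 339 CPM with DMSO, a log2 fold change of -0.51 ± 0.038 (adjusted p = 4.16e-20). In all 3 genes the treated libraries lay below every DMSO library. Ddx21 fell by a similar amount (-0.44), as did Ddx56 (-0.46), Nop14 (-0.45) and Nop2 (-0.41).

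The 5 members that rose with GSK3326595 in T cells were Nop10, Npm1, Rrp12, Mybbp1a and Gar1. Nop10 had 45.7, 43.9 and 45.6 CPM with GSK3326595 and 24.4, 26.5 and 23.8 CPM with DMSO, a log2 fold change of 0.86 ± 0.066 (adjusted p = 5.96e-21) and the highest in T cells. Npm1 had 1393, 1439 and 1470.2 CPM with GSK3326595 and 1110.3, 1129.9 and 1151 CPM with DMSO, a log2 fold change of 0.34 ± 0.031 (adjusted p = 7.38e-17). Rrp12 had 89.1, 99.0 and 84.1 CPM with GSK3326595 and 78.6, 75.5 and 75.1 CPM with DMSO, a log2 fold change of 0.24 ± 0.049 (adjusted p = 2.2e-05). The treated libraries of these 3 genes stood above all DMSO libraries. Gar1, like Nop10 an H/ACA protein, changed by 0.12 and Mybbp1a by 0.13, whereas the H/ACA enzyme gene Dkc1 fell (-0.31).

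With MRTX1719 fewer members passed the test in T cells. 12 rose, 7 fell and 29 did not pass, against 18.9% of all genes higher and 18.5% lower, with a median log2 fold change of 0.042 for the members and -0.00082 over all genes. The direction of the set depended on the scaling, since library totals alone gave 7 higher and 12 lower. The CD8 T cell markers summed to 3329 to 3390 CPM with MRTX1719 and to 2979 to 2990 CPM with DMSO, and their part was not tested. Nop10 had 36.8, 38.9 and 42.3 CPM with MRTX1719 and 24.4, 26.5 and 23.8 CPM with DMSO, a log2 fold change of 0.67 ± 0.067 (adjusted p = 2.08e-14). Npm1 had 1480.3, 1512 and 1507 CPM with MRTX1719 and 1110.3, 1129.9 and 1151 CPM with DMSO, a log2 fold change of 0.41 ± 0.031 (adjusted p = 4.61e-20). Nhp2, another core H/ACA protein, had 212, 234 and 223 CPM with MRTX1719 and 169, 171 and 182 CPM with DMSO, a log2 fold change of 0.36 ± 0.039 (adjusted p = 4.13e-13). These 3 were higher in each treated library than in any DMSO library, and all 4 H/ACA genes rose.

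Utp4 fell with MRTX1719 in T cells as well, with 40.2, 37.8 and 39.6 CPM against 59.0, 50.9 and 57.9 CPM with DMSO, a log2 fold change of -0.52 ± 0.059 (adjusted p = 3.66e-12). Tsr1, a late small subunit factor, had 93.7, 88.0 and 98.5 CPM with MRTX1719 and 108, 109 and 114 CPM with DMSO, a log2 fold change of -0.24 ± 0.046 (adjusted p = 1.47e-05). The treated libraries of both genes were below every DMSO library. Polr1a had 109, 100.1 and 114 CPM with MRTX1719 (-0.070 ± 0.045, adjusted p = 0.222, log2 scale, against DMSO), Polr1b had 105, 98.1 and 102 CPM (-0.023 ± 0.044, adjusted p = 0.714) and Polr1c had 75.2, 70.3 and 73.0 CPM (0.25 ± 0.051, adjusted p = 2.24e-05). Of the 3 Pol I subunits among the members only Polr1c therefore passed the test with MRTX1719 in T cells, while library totals alone gave Polr1a a call at -0.12.

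Myc fell in T cells with either inhibitor. It had 161, 155 and 159.9 CPM with MRTX1719, 182, 174 and 173 CPM with GSK3326595 and 195, 192 and 209 CPM with DMSO. The log2 fold change against DMSO was -0.32 ± 0.039 (adjusted p = 3.87e-11) for MRTX1719 and -0.17 ± 0.039 (adjusted p = 0.000108) for GSK3326595, and the 3 groups did not overlap. Both inhibitors share the same DMSO libraries. Summed immediate early RNA was 752 to 769 CPM with MRTX1719, 557 to 579 CPM with GSK3326595 and 901 to 950.2 CPM with DMSO, and its part in the fall of Myc was not tested.

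Between the inhibitors in T cells, 32 members were higher and 2 lower with MRTX1719 than with GSK3326595, against 19.3% and 19.7% of all genes, with a median log2 difference of 0.21 for the members and -0.0040 over all genes. All 3 Pol I subunits were higher with MRTX1719, Polr1a by 0.34 ± 0.045 (adjusted p = 5.92e-10), Polr1b by 0.33 ± 0.044 (adjusted p = 5.37e-10) and Polr1c by 0.24 ± 0.050 (adjusted p = 3.8e-05). So were all 4 box C/D genes, 10 of 14 large subunit factors and 9 of 17 small subunit factors. Ddx21 had 569, 661 and 574 CPM with MRTX1719 and 444, 435 and 402 CPM with GSK3326595, a log2 difference of 0.49 ± 0.053 (adjusted p = 1.36e-06). Ddx56 had 77.3, 79.9 and 76.2 CPM with MRTX1719 and 55.2, 53.4 and 57.3 CPM with GSK3326595, a log2 difference of 0.49 ± 0.049 (adjusted p = 1.62e-14). Nhp2 had 212, 234 and 223 CPM with MRTX1719 and 162, 163 and 155 CPM with GSK3326595, a log2 difference of 0.48 ± 0.039 (adjusted p = 3.57e-19). None of these 3 overlapped between the compounds. The 2 lower members were Nop10 at -0.19 ± 0.061 (adjusted p = 0.00831) and Myc at -0.15 ± 0.039 (adjusted p = 0.0009). Nop10 did not pass without the MRTX1719 replicate 1 library, at -0.14, which left 1 lower.

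**Figure D3:**
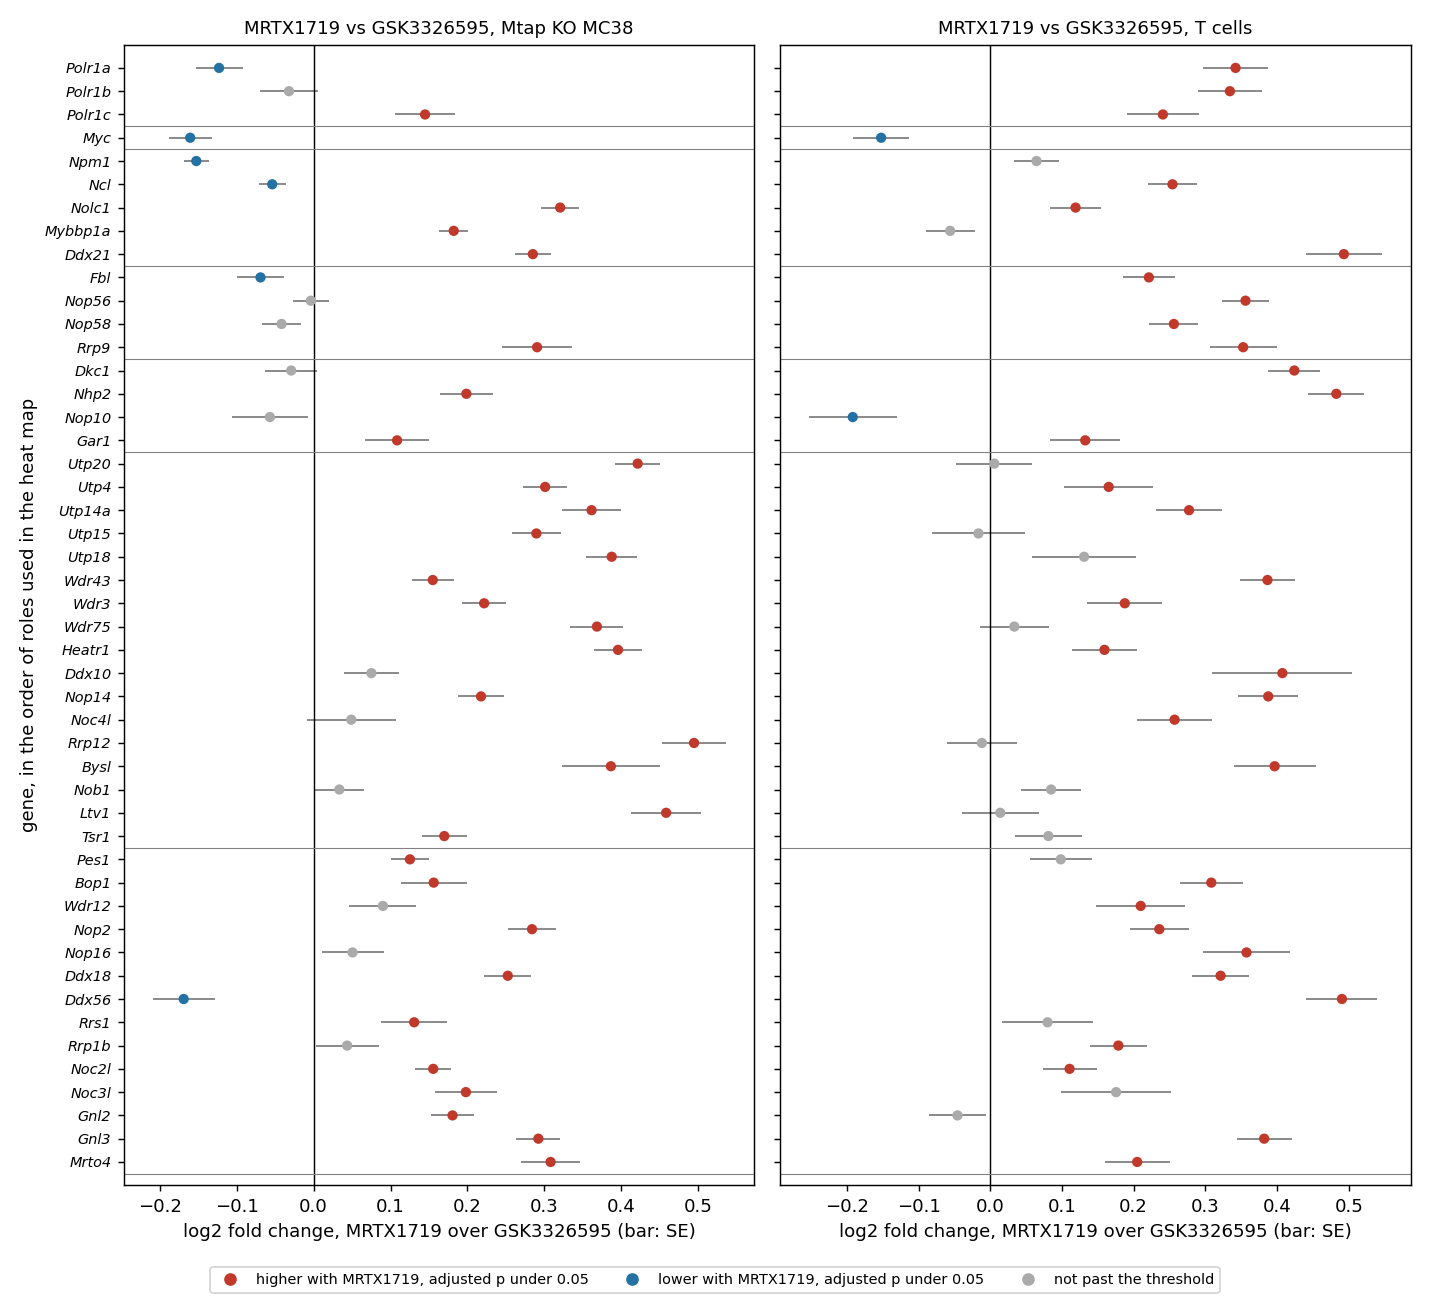
Log2 fold change of each member (rows) with MRTX1719 over GSK3326595, in KO MC38 cells on the left and T cells on the right, with the standard error as a bar and the colour giving the call at an adjusted p of 0.05. Most points lie right of 0 in both panels, and Myc lies left of 0 in both.

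The 9 members with an E-box in the promoter window were followed through the comparisons as a description with no test, since they were grouped after the values were known. With MRTX1719 in KO cells all 9 rose, with a median log2 fold change of 0.45 and a range of 0.18 to 0.86. Of the 32 members whose window lacks the motif 21 rose and 3 fell, with a median of 0.21, against 37% of all genes higher and 33.6% lower. Of the 9, Utp20, Utp4, Utp18, Wdr43, Ltv1 and Tsr1 are small subunit factors, a class where 15 of 17 rose with a median of 0.45. Motif and role therefore cannot be told apart here. Between KO and WT cells with DMSO, 7 of the 9 fell and 1 rose (median -0.41), and 24 of the others fell and 1 rose (median -0.28). Of all genes 37% were lower and 36.2% higher there. With GSK3326595 in T cells 4 of the 9 fell and 1 rose (median -0.16), and 23 of the others fell and 2 rose (median -0.24). There 26.2% of all genes were lower and 26.6% higher. With MRTX1719 in T cells 1 of the 9 rose and 4 fell (median -0.031), and 8 of the others rose and 1 fell (median 0.048). There 18.9% of all genes were higher and 18.5% lower. The order of the 2 medians thus differed between comparisons, and some of these counts lay near the share of all genes. Utp4, whose window is printed above, shows the range within this group: it rose by 0.42 with MRTX1719 in KO cells and fell by 0.52 with the same compound in T cells.

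The wider pathway was checked in 66 other ribosome assembly factors. In KO against WT cells 45 were lower and 13 higher, against 37% and 36.2% of all genes. Values ran from -0.85 for Eif6, which keeps the large subunit from joining early, to 0.92 for Rrp7a. With MRTX1719 in KO cells 46 rose and 9 fell, against 37% and 33.6% of all genes. The range was from -0.66 for Znhit6, a factor of C/D particle assembly, to 0.85 for Ftsj3, a methyltransferase of pre-ribosomes. GSK3326595 in KO cells gave 20 higher and 12 lower, against 27.7% and 25.1% of all genes. The direct comparison of MRTX1719 with GSK3326595 in KO cells gave 43 higher and 7 lower, against 28.3% and 24.9%. In WT cells 39 rose and 9 fell with GSK3326595, against 20.1% and 21.1%, and 3 rose and 4 fell with MRTX1719, against 3.62% and 3.91%. In T cells 25 fell and 17 rose with GSK3326595, against 26.2% and 26.6% of all genes, and 17 rose and 4 fell with MRTX1719, against 18.9% and 18.5%. There 25 were higher and 6 lower with MRTX1719 than with GSK3326595, against 19.3% and 19.7%. In MC38 cells these counts leaned the same way as those of the members, except with MRTX1719 in WT cells. The risers with GSK3326595 in KO cells and in T cells, and both counts with MRTX1719 in WT cells, were near the share of all genes. The difference between the lists was not tested.

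The other Pol I subunits and factors, 12 of them tested, did not lean clearly one way in most comparisons. In KO against WT cells 5 were lower and 2 higher, against 37% and 36.2% of all genes. They were led by the subunit gene Polr1e at -0.91 and by Taf1a, of the promoter selectivity factor, at 0.87. With MRTX1719 in KO cells 4 rose and 4 fell, near the 37% and 33.6% of all genes. Rrn3, the initiation factor of Pol I, was at 0.58 and Ubtf, which binds the rDNA promoter, at -0.50. With GSK3326595 in T cells 4 fell and 3 rose, against 26.2% and 26.6% of all genes. Taf1a was at -0.56, Rrn3 at 0.52 and Polr1d, a subunit shared with RNA polymerase III, at 0.68. With MRTX1719 in T cells Polr1d was at 0.56.

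Of the relatives and partners of Myc, 10 were tested in MC38 cells and 9 in T cells. In KO against WT cells 7 of 10 were higher and 1, Mycl, lower (-3.39), against 36.2% and 37% of all genes, and Mycn was at 2.68. Mycn had 90.7, 85.2 and 92.8 CPM in KO libraries and 13.9, 14.0 and 14.0 CPM in WT libraries, and Mycl 1.80, 1.90 and 1.41 CPM in KO libraries and 18.1, 15.8 and 20.0 CPM in WT libraries, so Myc and Mycl were lower and Mycn higher in the KO line. With MRTX1719 in KO cells 5 rose and 5 fell, against 37% and 33.6% of all genes, with Mycn at -1.14. In T cells Mnt, a repressor that competes with MYC for its partner MAX, was at -0.59 with GSK3326595 and -0.63 with MRTX1719.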

How the data were processed

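Poly(A) RNA of 17 MC38 and 9 T cell libraries was measured. For each kind of cell the authors deposited a table of raw counts and a table of normalized signal. Per the submitters' processing notes, the build was GRCm39 (mm39) and the tools included Bowtie2 2.1.0, TopHat2 2.0.10 and DESeq 1.18.0, and per the labels' protocols the libraries were directional. How reads were counted, with which annotation and whether by strand, is not given in the sources used here. Reads of overlapping genes may be shared, since exons of 22 members overlap another annotated gene, and Mrto4 has 2 named pseudogenes. The deposited signal equals the counts divided by 1 factor per library, and this match, within 1e-06, gave 15629 of 15629 and 15287 of 15300 entries an identifier. The labels' treatment field gives GSK3326595 other last digits in replicates 2 and 3. The titles do not, and 1 compound was assumed.

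Counts were fitted in R 4.3.3 with edgeR 4.0.16 (TMM, filterByExpr, robust quasi-likelihood F test), all groups of a table in 1 fit without covariates, for 14835 and 13753 genes and 12 comparisons. P-values were Benjamini-Hochberg adjusted over all genes, with a threshold of 0.05, and errors of fold changes are standard errors. The fit was also run on simulated counts, whose outcome is not given here and not used as support. Alternatives were DESeq2, 3 other scalings, no filter, a 1.2-fold minimum, a replicate block, only the groups compared, and leaving out each library. Replicate libraries differed beyond sampling noise, at a chi-square per gene of 1.38 to 2.68 for MC38 and 1.90 to 3.50 for T cell pairs. The labels do not call them separate cultures or animals, so p-values measure only how these libraries spread, possibly for technical reasons. The genes named with full statistics are Myc and the 3 Pol I subunits and the 3 highest and 3 lowest members called in each comparison, most with values in every library of the groups compared, plus a few chosen after their values were seen (Ltv1, Ddx21 and Utp18 where they were not among these, and Mycn and Mycl). Members and lists were chosen with earlier results of these data known.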

Additional observations from a re-analysis of the deposited data

Results flagged for a closer look

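These values are listed because the effect of a compound differed between cells. By the interaction term, the effect of GSK3326595 on 8 members was more positive and on 16 more negative in KO than in WT MC38 cells. Among all genes these shares were 22% and 20.2%. The effect of MRTX1719 was more positive on 29 members and more negative on 8, against 30.3% and 27.9% of all genes. For GSK3326595 the differences were 0.090 for Myc, 0.14 for Polr1a, -0.18 for Polr1c, 0.30 for Utp20, 0.28 for Ddx21, 0.17 for Nop14, -0.58 for Nop10, -0.50 for Ddx56 and -0.39 for Bop1, on the log2 scale. For MRTX1719 they were 0.16 for Polr1c, 0.73 for Utp20, 0.56 for Utp18, 0.54 for Mybbp1a, -0.48 for Ddx56, -0.24 for Nop10 and -0.20 for Bop1.

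Some genes passed the test in opposite directions in T cells and in MC38 cells, with every treated library on that side of the DMSO libraries. The difference between T cells and MC38 cells was not tested, because the tables were fitted separately and the exposure was 3 days in T cells and 5 days in MC38 cells. With GSK3326595, Myc changed by -0.17 in T cells, 0.062 in WT and 0.15 in KO MC38 cells, Polr1b by -0.36 in T cells, 0.22 in WT and 0.25 in KO MC38 cells, and Polr1a by -0.41 in T cells and 0.10 in KO MC38 cells. With MRTX1719, Nop10 changed by 0.67 in T cells and -0.27 in KO MC38 cells, and Npm1 by 0.41 in T cells and -0.21 in KO MC38 cells. The Myc rise in WT cells did not pass with DESeq2 and the Polr1a rise in KO cells did not pass under library totals.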

How the results depend on the processing

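Of 1607 values recomputed for the named genes, 1513 kept their side of the threshold, 89 lost a call and 4 gained one. The remaining 1 turned sign and passed the test, Myc in the MRTX1719 interaction under upper-quartile scaling (-0.088). A change of sign where neither value passed the test was counted among the 1513. Of these 94 changed calls, 41 came with the 1.2-fold minimum and 27 with leaving out a library. With a change of at least 1.2-fold required, the members called fell in number by construction. In WT cells 5 then rose and 0 fell with GSK3326595, 0 rose with MRTX1719, and 0 were higher and 2 lower with MRTX1719 than with GSK3326595. In KO cells 2 rose and 2 fell with GSK3326595, 22 rose and 2 fell with MRTX1719, and 16 were higher and 0 lower with MRTX1719 than with GSK3326595. Between KO and WT cells with DMSO, 28 were lower and 3 higher in KO cells. The GSK3326595 interaction had 2 more positive and 4 more negative, and the MRTX1719 interaction 20 more positive and 1 more negative. In T cells 2 rose and 19 fell with GSK3326595, 4 rose and 2 fell with MRTX1719, and 17 were higher and 0 lower with MRTX1719 than with GSK3326595. The share of all genes at the 1.2-fold minimum was not computed, so these counts cannot be set against it.

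In KO against WT cells, the members higher were 6 with median-ratio scaling, 7 with upper-quartile scaling and 5 with only the groups compared. In WT cells with MRTX1719, 8 rose with library totals alone and 8 with only the groups compared. In KO cells with GSK3326595, 8 fell with library totals and 9 with upper-quartile scaling, which also gave 12 lower with MRTX1719 in KO cells, and 3 more positive and 26 more negative in the GSK3326595 interaction. Library totals gave 7 higher and 12 lower with MRTX1719 in T cells. The cause of these shifts was not tested. These scalings moved the median of all genes by -0.094 to 0.074. Leaving out each library in turn, the members higher ranged from 3 to 5 in KO against WT cells, from 1 to 4 in WT cells with MRTX1719 and from 1 to 2 for MRTX1719 against GSK3326595 in WT cells, and the members lower from 5 to 8 in KO cells with GSK3326595 and from 1 to 2 for MRTX1719 against GSK3326595 in T cells.

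Same-numbered libraries did not clearly deviate together, with correlations of -0.127 to 0.0935 over 40 pairs in MC38 cells and -0.201 to 0.0764 over 9 pairs in T cells. No pairing by number was seen, but groups of 2 or 3 libraries cannot exclude it. With a replicate block, 36 members were lower in KO than in WT cells, 32 rose with MRTX1719 in KO cells and 30 fell with GSK3326595 in T cells, and no member count moved by over 1.5 times. The depth, at least 340 counts for each member in each library, left no member out of the tests.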
